A study of Solanum tuberosum with 12 samples.

Results

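Of the 324 predicted miRNA loci in the deposited list of potato small RNAs, 2 are described here, the miR482 sequence PotatoMir1005658171 and the miR6024 sequence PotatoMir1006187661. They were picked as the entries with a 22 nt mature sequence whose identifier begins with PotatoMir1005658171 or ends in a number of exactly 613 reads, and each rule found 1 locus. The study's tables give them the names miR482 and miR6024, and one of the tables calls the miR482 sequence stu-miR482b, so that it is called miR482b below. The list holds 4 miR482 sequences in all, and the other 3 (PotatoMir1005353123, PotatoMir1005353002 and PotatoMir1006074505) serve here as relatives for comparison. All 5 sequences are 22 nt in length, and the list has 18 distinct sequences of that length at 25 loci.

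The small RNAs came from clone ADG573 of Solanum tuberosum group Andigena, a potato that forms tubers under short days (SD). Plants propagated in vitro were grown for 4 weeks under long days (LD) in a glasshouse and moved into LD or SD cabinets at 20 °C, and 12 libraries were made. Leaf was sampled under SD and under LD, and stolons and swollen stolons under SD, with 3 biological replicates in each group. The labels give sampling after 8 days for every group, whereas the methods of the study give later days for stolon. All groups share the same clone, with no transgene or mutation, so the values stand for 1 genotype. The libraries were pooled before miRNAs were predicted, and the list gives for each locus the reads of all libraries together. The list therefore gives no level by tissue, no error between replicates and no depth per library. Tissues and day lengths were not compared here, since the read totals by tissue in the study's tables were not used.

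miR482 and miR6024 belong to the plant miRNAs that pair with transcripts of NB-LRR genes, the intracellular immune receptors with a nucleotide binding site and leucine rich repeats. In the Solanaceae they are known to pair with the stretch that encodes the P-loop, the part of the nucleotide binding site that contacts ATP and is among the most conserved pieces of these receptors. Most plant miRNAs are 21 nt long, and miRNAs of 22 nt are known to start the production of secondary, phased small RNAs from the transcripts that they cut. A 22 nt miRNA often comes from a hairpin in which an extra base bulges out of the miRNA strand, so that the star strand opposite is 1 base shorter.

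The mature sequences of both miRNAs and of the other 3 miR482 sequences are shown first, because their differences return in the hairpins and in the target sites. They are written 5′ to 3′ from the deposited list with U for T, and the capitals mark the seed (bases 2 to 8).
miR482b: uUACCGAUuccccccauuccaa
PotatoMir1006074505: uUUCCAAUuccacccauuccua
PotatoMir1005353002: uCUUGCCAauaccgcccauucc
PotatoMir1005353123: uCUUGCCUacaccgcccaugcc
miR6024: uUUUAGCAagaguuguuuuccc

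No 2 of these seeds were the same, and none of them was found in another of the 222 distinct sequences of the list. All 5 sequences began with U, as did 15 of the 18 distinct 22 nt sequences (83.3%, 95% Wilson interval 60.8 to 94.2%). Over the whole list U was the first base of 94 of 222 sequences (42.3%), with 34 of 59 at 21 nt and 30 of 121 at 24 nt. A 5′ U is known as the base that the slicing Argonaute AGO1 prefers. The base content of both members differed, since miR482b had 10 C and 1 G among its 22 bases (50.0% G or C) and miR6024 had 10 U, 4 C and 4 G (36.4% G or C).

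miR482b had 16170 reads in all libraries together, with a 95% Poisson interval of 15922 to 16421. This was the highest read number of the 18 distinct 22 nt sequences and the sixth highest of the 222 distinct sequences of the list (rank 6). With each distinct sequence counted once, it made up 1.69% of the 954147 reads listed (95% Wilson interval 1.67 to 1.72%), and 34.9% of the 46330 reads of 22 nt sequences (34.5 to 35.3%). Next below it was its relative PotatoMir1005353123 with 15854 reads, whose interval of 15608 to 16103 overlaps that of miR482b. PotatoMir1005353002 had 4609 reads and PotatoMir1006074505 had 3071 reads, which was 28.5% and 19% of the number of miR482b. The intervals cover counting error only, because these reads were amplified and carry no molecular identifiers, so some may be copies of the same molecule.

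Reads of miR482 thus came mainly from a pair of sequences with nearly equal numbers. Of the 39704 reads of the 4 miR482 sequences, 40.7% belonged to miR482b (95% Wilson interval 40.2 to 41.2%), and the 4 sequences together held 85.7% of the reads of 22 nt sequences (85.4 to 86.0%).

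miR6024 had 613 reads (95% Poisson interval 565 to 664), which was 0.0642% of all reads listed (0.0594 to 0.0695%) and 1.32% of those of 22 nt sequences. miR482b had 26.4 times as many reads. Among the 22 nt sequences miR6024 had rank 6, below PotatoMir1006074505 with 3071 reads and above PotatoMir1005536707 with 462 reads (421 to 506). Its rank among the 222 distinct sequences was 20. The median was 101 reads for 22 nt sequences and 17.5 reads for the whole list, so both miRNAs lay in the upper part of the list. The members were chosen by length and read number, so these numbers are a description and were not tested.

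**Figure D1:**
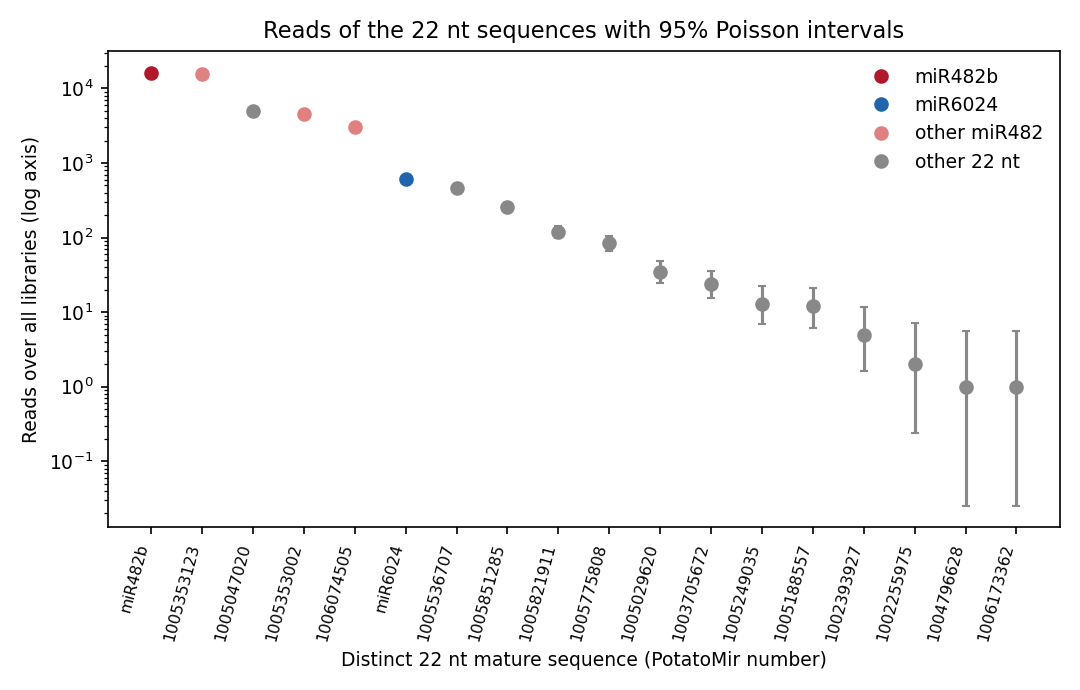
Reads over all libraries (log axis) of the 18 distinct 22 nt sequences in order of read number, with 95% Poisson intervals as bars. miR482b (16170 reads, dark red) and PotatoMir1005353123 (15854 reads) lie at the top, miR6024 (613 reads, blue) is at rank 6, and the lowest sequences have 1 read.

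Each member was listed at 1 locus, and both lie on the minus strand of superscaffolds of the DM potato genome. The precursor of miR482b is on superscaffold PGSC0003DMB000000227 from 538039 to 538120, with the mature sequence from 538039 to 538060. The precursor of miR6024 is on PGSC0003DMB000000173 from 737057 to 737134, with the mature sequence from 737057 to 737078. RefSeq (assembly SolTub_3.0) has genes named MIR482B and MIR6024. Its coordinates were not used here, and whether the loci lie in a gene, an exon or an intron was not analysed here.

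miR482b lay in a cluster of miR482 loci. All 3 loci of the list on PGSC0003DMB000000227 were miR482 loci on the same strand, and they spanned 11289 nt. PotatoMir1005353123 (531333 to 531402) was separated from miR482b by 6636 nt, and PotatoMir1005353002 (542551 to 542621) was separated from it by 4430 nt on the other side. The last relative, PotatoMir1006074505, was on the plus strand of PGSC0003DMB000000062 from 1458173 to 1458236. miR6024 shared its superscaffold with 1 locus of the list, a 24 nt sequence of 28 reads on the opposite strand (PotatoMir1001741501, 710278 to 710351).

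The miR482 sequences were aligned without gaps at every offset, where miR482b was closest to PotatoMir1006074505, with 18 of 22 bases identical. PotatoMir1005353002 shared 16 of 20 overlapping bases and PotatoMir1005353123 shared 14 of 20, and both began 2 nt upstream of miR482b in this alignment. In the mature strand the closest relative was thus the one on another superscaffold, by a small margin. Over the whole precursor PotatoMir1006074505 came last instead, with 62.2% of aligned columns identical. The cluster neighbours PotatoMir1005353002 and PotatoMir1005353123 had 74.4% and 64.3%, so PotatoMir1005353123 was ahead of it only by a small margin. These shares count columns with gaps, whereas the mature strands were aligned without gaps. The precursor of miR6024, which is of another family, had 46.2%. The fourth closest sequence of the list shared 13 bases, and the median over the other 221 distinct sequences was 8. In the precursor of miR482b the 2 bases in front of the mature sequence were UC, the same as the first 2 bases of the sequences that begin 2 nt upstream.

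Over the 20 positions that all 4 miR482 sequences cover, 14 had the same base in each. Against miR482b, with positions counted from its 5′ end, PotatoMir1006074505 had A3U, G6A, C12A and A21U. PotatoMir1005353002 had A3G, G6A, U9A and C12G. PotatoMir1005353123 had A3G, G6U, U8C, U9A, C12G and U18G. Of these 14 differences, 13 were at positions that are multiples of 3 and 1 was at position 8. The differences are not independent, because every relative was compared with the same miR482b sequence. Positions 3, 6 and 12 differed in every relative, and position 9 differed in PotatoMir1005353002 and PotatoMir1005353123. These positions were therefore counted more than once. The spacing by multiples of 3 was noticed after the values had been seen and was not tested.

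miR6024 was closest to PotatoMir1005851285, a 22 nt sequence with 259 reads on PGSC0003DMB000000172 that the study's tables name miR6026. The pair shared 16 of 21 bases when PotatoMir1005851285 began 1 nt upstream. The next sequence in the list shared 13 bases and had no homologue name.
miR6024: uUUUAGCAagaguuguuuuccc
PotatoMir1005851285: uUCUUGGCuagaguuguauugc
The 5 differences from miR6024 were U2C, A5G, A8U, U17A and C20G, again spaced by multiples of 3, at positions that are 2 above a multiple of 3.

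The hairpins of both members carried the miRNA on the 3′ arm, as did those of the other miR482 sequences and 9 of the 18 distinct 22 nt sequences. They are shown because the pairing of the arms sets the length of the star strand. In the precursors below, the mature strand is in capitals and the first bases are the star strand.
miR482b: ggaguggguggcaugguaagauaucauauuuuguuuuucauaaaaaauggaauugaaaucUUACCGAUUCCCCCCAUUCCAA
miR6024: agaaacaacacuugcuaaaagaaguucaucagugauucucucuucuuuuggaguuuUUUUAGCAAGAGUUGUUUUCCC

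The precursor of miR482b was 82 nt long and that of miR6024 was 78 nt, against a median of 85 nt over all 324 loci (42 to 226 nt). With RNAfold at 37 °C the minimum free energy was -35.10 kcal/mol for miR482b and -28.70 kcal/mol for miR6024. Per nt this was -0.428 and -0.368 kcal/mol. The median of all loci was -0.430 kcal/mol per nt (-0.875 to -0.102), and 163 loci were lower than miR482b and 221 were lower than miR6024. miR6024 was itself the median of the 25 loci of 22 nt sequences, and the other miR482 precursors ranged from -0.493 to -0.423 kcal/mol per nt. Neither member was therefore at an extreme of the list in the stability of its hairpin. Folding was part of the prediction of each locus, so these energies are no independent test of the hairpins.

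**Figure D2:**
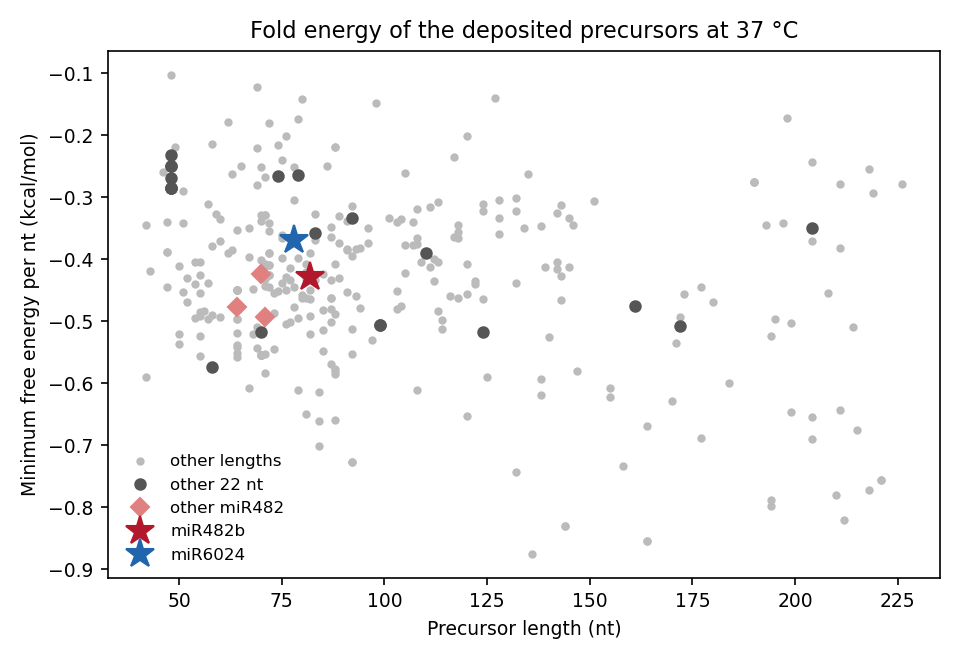
Minimum free energy per nt at 37 °C (kcal/mol, lower is more stable) against precursor length (nt) for the 324 loci of the list. miR482b (red star, 82 nt, -0.428) and miR6024 (blue star, 78 nt, -0.368) lie within the cloud of the other loci.

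The main difference between the members was the symmetry of the duplex. When the star strand was cut from the fold so as to leave overhangs of 2 nt, that of miR482b was 21 nt, 1 base shorter than the mature strand, whereas that of miR6024 was 22 nt. Both were identical to the star sequences in the study's tables.
miR482b star: ggaguggguggcaugguaaga
miR6024 star: agaaacaacacuugcuaaaaga
In the duplex of miR482b 16 of the 20 mature bases in front of the overhang formed Watson-Crick pairs and 1 (position 17) formed a G:U pair. The 3 unpaired bases were at positions 6, 9 and 12, and the G at position 6 had no base opposite, which made 1 asymmetric bulge of 1 nt. In the duplex of miR6024 17 of 20 bases formed Watson-Crick pairs and 1 (position 19) formed a G:U pair. Positions 11 and 20 were unpaired, and there was no asymmetric bulge.

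miR482b shared this shape with its relatives. Each of the other 3 miR482 duplexes also had a 21 nt star strand and 1 asymmetric bulge of 1 nt on the mature strand, at position 8 in PotatoMir1005353002 and PotatoMir1006074505 and at position 9 in PotatoMir1005353123. Counted from the shared alignment, 2 nt have to be taken from the positions of PotatoMir1005353002 and PotatoMir1005353123, which puts the bulge of PotatoMir1005353002 at position 6 of miR482b and that of PotatoMir1005353123 at position 7. Of the 18 distinct 22 nt sequences, 10 had a 21 nt star strand and 8 had a 22 nt star strand, and the 10 held 96.6% of the reads of 22 nt sequences. Most of that share was the 85.7% of the 4 miR482 sequences themselves. Most of the rest belonged to a sequence without a family name (4997 reads), also with a 21 nt star strand and 1 asymmetric bulge. At 21 nt, 46 of 59 distinct sequences had a star strand of their own length. Both members met the duplex criteria of the study, which allow 4 mismatches and 1 asymmetric bulge of 2 nt. The study had filtered the predictions in its tables by these criteria, and its tables hold both members, so this outcome was fixed beforehand.

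**Figure D3:**
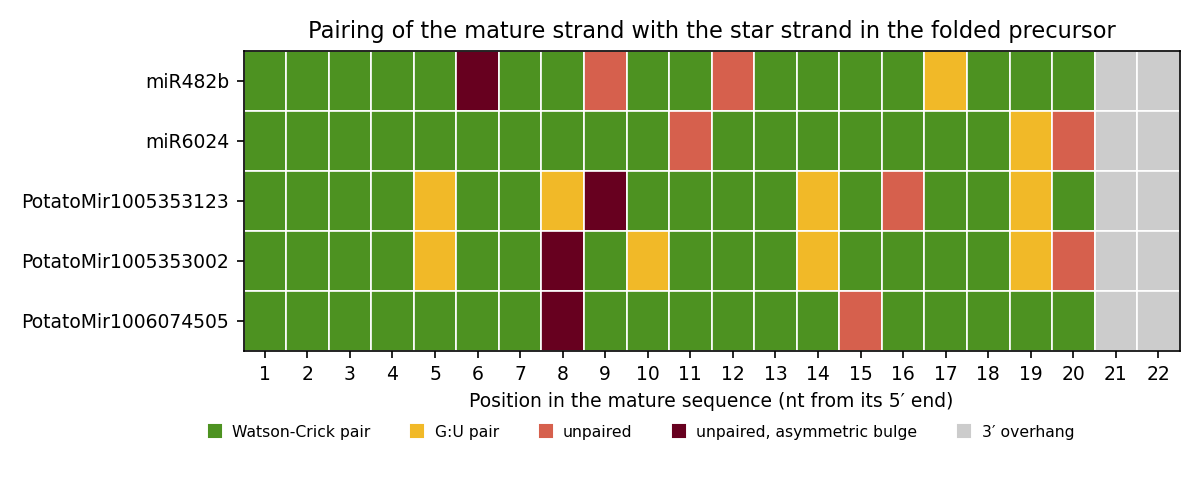
State of each mature base (position in nt from the 5′ end) in the folded duplex of the members and of the other miR482 sequences, with 3′ overhangs in grey. The 4 miR482 duplexes each have 1 asymmetric bulge (darkest squares, positions 6 to 9), which the duplex of miR6024 lacks.

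How firmly these folds were predicted also differed. Over the pairs of the duplex, the mean pairing probability in the ensemble of folds was 0.906 for miR482b and 0.970 for miR6024, and the least certain pair had a probability of 0.338 in miR482b and 0.739 in miR6024. For the other miR482 duplexes the mean was between 0.964 and 0.981. Their least certain pair had a probability of 0.491 in PotatoMir1005353002, 0.527 in PotatoMir1006074505 and 0.814 in PotatoMir1005353123.

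The ends of the duplex were compared as well, because the strand whose 5′ end is paired more weakly is known to be the one that Argonaute tends to keep. The pairing energy of the 4 mature positions at the 5′ end, minus that of the 4 positions at the other end in front of the overhang, was 1.9 kcal/mol for miR482b, so its 5′ end was the weaker one. For miR6024 the difference was -0.5 kcal/mol, so its 5′ end was the stronger one by a small amount. The relatives were on both sides of 0, with 2.4 kcal/mol for PotatoMir1006074505, 0.5 for PotatoMir1005353123 and -1.4 for PotatoMir1005353002. Over the list the difference was above 0 at 173 of 323 loci with a star strand, with a median of 0.4 kcal/mol. With 3 terminal positions the value of miR482b rose to 4 kcal/mol, and with 5 it was 0, so it rested on the outermost pairs.

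The predicted targets of both members were mostly named as NB-LRR or other resistance genes (15 of 16 transcripts of miR482b and 16 of 19 of miR6024). Such names were given to 18 of 21 transcripts of PotatoMir1005353123, 23 of 23 of PotatoMir1005353002 and 8 of 15 of PotatoMir1006074505. The share over the targets of all listed sequences was not analysed here. The site sequences of the stricter target prediction in the study's tables were paired again with the deposited sequences, with 1 for each mismatch and 0.5 for each G:U pair over the first 19 bases. The tables list 16 transcripts for miR482b, which share 4 distinct site sequences, and 19 transcripts for miR6024 with 10 distinct site sequences. Transcripts with neighbouring numbers may be variants of the same gene. The sites had been chosen by their pairing, so the scores describe them and were not tested.

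For miR482b 10 of the 16 transcripts carried the names NL25 or NL27, genes of the N-like resistance family named after the N gene of tobacco. Another 2 were named after Gpa2, a potato gene for resistance to cyst nematodes, 2 after bacterial spot disease resistance protein 4, and 1 as a resistance gene, and 1 had an unknown function. The 4 sites are given with capitals for the bases that do not form a Watson-Crick pair, and base 1 of the miRNA pairs with the last base of each.
NL25, NL27 and unknown function, 9 transcripts: ggaauggggggaGucgguaa
NL25 and resistance gene, 3 transcripts: ggaauggggggaGuUgguaa
Bacterial spot disease resistance protein 4, 2 transcripts: ggCauggggggaauUgguaa
Gpa2, 2 transcripts: uuggUauggggggUauUgguaa

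The first site, which includes NL25 transcript PGSC0003DMT400006234, had the lowest score of 0.5, from a single G:U pair at position 8. The highest score, 2.5, belonged to the Gpa2 site of PGSC0003DMT400050509 and PGSC0003DMT400050510, with mismatches at positions 9 and 18 and a G:U pair at position 6. Over the 4 sites the median was 1.25. Positions 10 and 11, between which Argonaute cuts, formed Watson-Crick pairs at 4 of 4 sites, and so did the run of C from position 10 to 15. The pairing energy calculated with RNAduplex was between -40.40 and -30.20 kcal/mol, which was 97.8% to 73.1% of the -41.30 kcal/mol of a perfect complement.

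miR6024 had a wider set of sites, with 16 of 19 transcripts named after resistance or NB-LRR proteins. These included Tm-2, the tomato gene for resistance to tobacco mosaic virus, tospovirus resistance protein A, BS2, which is a bacterial spot resistance gene of pepper, and a late blight resistance protein. The other 3 transcripts were 2 of an ATP binding protein and 1 of a LysM type receptor kinase, a class of cell surface receptors for chitin and related sugars. The sites with the lowest score are shown with the Tm-2 site and the site with the highest score, with capitals as above.
BS2, PGSC0003DMT400062180: ggCaaaacaacucuugcAaaaa
NB-LRR protein, PGSC0003DMT400056268: ggCaaaacGacucuugcuaGaa
BS2, PSH-RGH6 and disease resistance protein, 4 transcripts: ggUaaGacaacucuugcuaGaa
Tm-2, 2 transcripts: gggaaaacaacucuugcCaaGa
LysM type receptor kinase, PGSC0003DMT400006475: ggGaaGcaacucuugcuGGGa

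The scores of miR6024 ranged from 1 to 2.5 with a median of 1.5 over the 10 sites. The LysM site reached 2.5 through G:U pairs alone, 5 of them, yet it had the lowest pairing energy of the 10 sites (-29.90 kcal/mol). The BS2 site of PGSC0003DMT400062180, with the lowest score of 1, had -23.20 kcal/mol. The Tm-2 site, with a score of 1.5, had -29.10 kcal/mol. The order by energy thus differed from the order by score. Mismatches were found at position 20 in 5 sites, at position 5 in 4 sites and at position 8 in 2 sites. Position 20 lies beyond the 19 scored bases, and every site with the lowest score of 1 had a mismatch there. Positions 10 and 11 formed Watson-Crick pairs at 8 of 10 sites, and the other 2 had a G:U pair at position 10. The pairing energy was between -29.90 and -22.80 kcal/mol, or 88.7% to 67.7% of a perfect complement (-33.70 kcal/mol). In absolute terms each miR482b site was therefore paired more strongly than each miR6024 site, but the ranges nearly met (-30.20 and -29.90 kcal/mol). As shares of a perfect complement the ranges overlapped (73.1% to 97.8% for miR482b against 67.7% to 88.7%). The share of G and C was also higher in miR482b (50.0% against 36.4%), and its part in the difference in absolute energy was not tested.

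**Figure D4:**
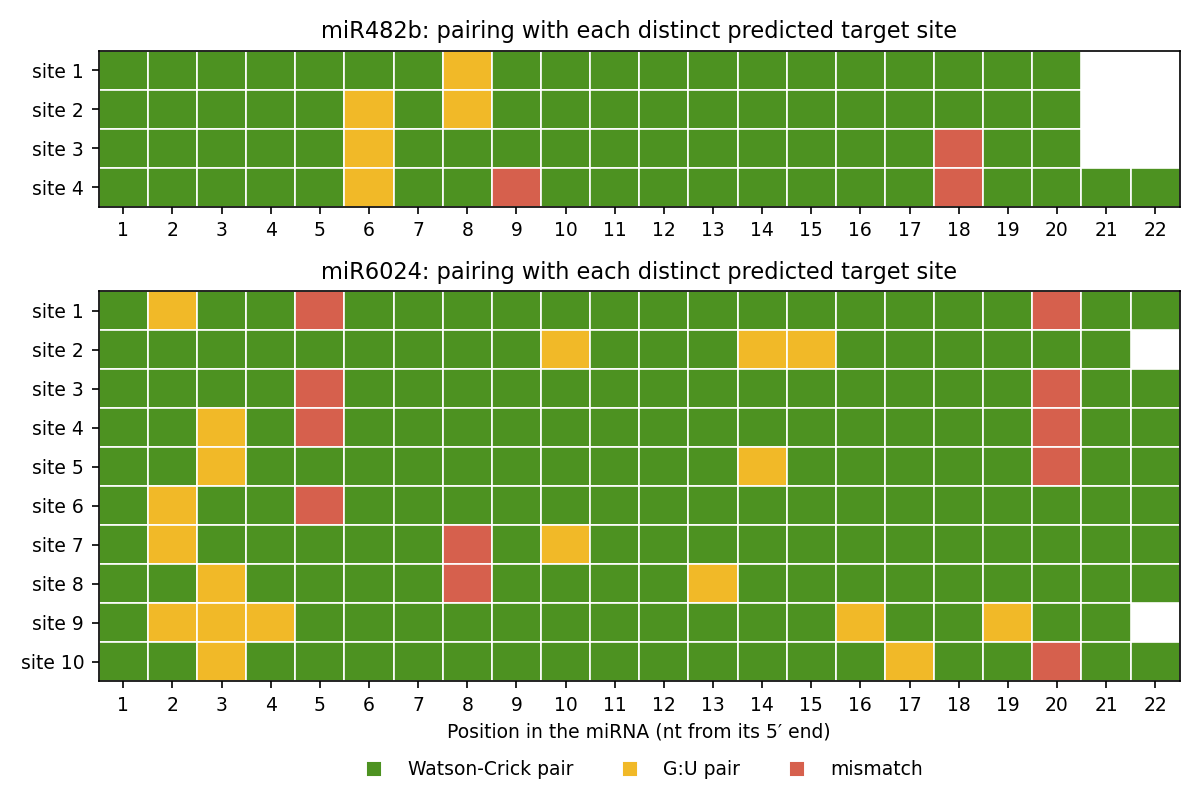
State of each miRNA position (nt from the 5′ end) against the distinct predicted sites of miR482b (4 sites, above) and miR6024 (10 sites, below), where white squares lie beyond the listed site. Non-Watson-Crick pairs of miR482b fall at positions 6, 8, 9 and 18. The mismatches of miR6024 fall at positions 5, 8 and 20, and its G:U pairs at positions 2, 3, 4, 10, 13, 14, 15, 16, 17 and 19.

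The imperfect pairs of the sites also followed steps of 3 bases. Of the 8 pairs of miR482b that were not Watson-Crick pairs, 6 (75%) were at multiples of 3. Of the 30 such pairs of miR6024, 18 (60%) were at positions that are 2 above a multiple of 3. The other listed sequences, apart from the 3 miR482 relatives, had 601 distinct sites without gaps. Over these sites the shares of the 3 steps (multiples of 3, 1 above and 2 above) were 34.9%, 34.6% and 30.5%. Steps were counted from the 5′ end of each miRNA, and the sites of many miRNAs were pooled. Even shares therefore cannot show whether single sequences had a spacing of 3 bases. The spacing was not particular to the members, since the miR482 relatives had it too. For PotatoMir1006074505, in the same register as miR482b, 21 of 32 such pairs (65.6%) were at multiples of 3. For PotatoMir1005353123 and PotatoMir1005353002, which begin 2 nt upstream, 14 of 17 (82.4%) and 19 of 23 (82.6%) were at positions 2 above a multiple of 3, which are multiples of 3 in the numbering of miR482b. Sites of a member resemble each other and are not independent, and the spacing was noticed after the values had been seen, so no test was made. The reading frame of these transcripts was not analysed here.

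Sites of both families were listed on the same transcript in 3 cases, each with PotatoMir1005353123 as the miR482 sequence. These were PGSC0003DMT400078332 (disease resistance protein), PGSC0003DMT400078333 (resistance protein PSH-RGH6) and PGSC0003DMT400078334 (BS2), with the same pair of sites. The capitals here mark the 7 bases that both sites share.
PotatoMir1005353123 site: gguaugggcgguauaGGUAAGA
miR6024 site: GGUAAGAcaacucuugcuagaa
The miR6024 site thus began inside the miR482 site, and the sites followed each other along the same stretch. The 3 transcripts were 15.8% of those of miR6024 and 14.3% of the 21 of PotatoMir1005353123. miR482b itself shared 0 of its 16 transcripts with miR6024.

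miR482b also shared 0 transcripts with each of its relatives, which had 21, 23 and 15. PotatoMir1005353123 and PotatoMir1005353002, whose sequences start at the same place in the alignment, shared 5. PotatoMir1006074505 shared 1 with PotatoMir1005353002 and 0 with PotatoMir1005353123. These counts, and the one with miR6024, rest on the stricter prediction alone and may depend on its cutoff. Sharing over all pairs of listed sequences was not compared here, so the counts of 0 are a description. To see how far the sets differed in sequence, miR482b was paired with the sites of the relatives over 17 bases, with the best of all shifts of up to 2 bases. Its own 4 sites had scores of 0.5 to 1.5 (median 0.75). The 6 sites of PotatoMir1005353123 had 3 to 5, the 8 of PotatoMir1005353002 had 2.5 to 4 and the 10 of PotatoMir1006074505 had 2 to 4, each with a median of 3.5. For miR482b the ranges of its own sites and of the other sites did not overlap, which the choice of sites by pairing fixes in part. In the reverse direction the ranges were less separate, but not all of these scores are like for like. For PotatoMir1005353002 and PotatoMir1005353123 the best shift there was -2, so their first 2 bases lay beyond the listed miR482b sites. Those bases added no penalty, which lowers these scores where they would not have paired. On the 4 miR482b sites PotatoMir1005353002 scored 1.5 to 4 against 0.5 to 2 on its own, which overlap, and PotatoMir1006074505 scored 2 to 3.5 against 1 to 2, which meet at 2. PotatoMir1005353123 scored 3.5 to 4.5 against 1 to 2, without overlap. At all sites of PotatoMir1005353123 and PotatoMir1005353002 the best shift was 2 bases, the same as the offset of the miRNAs.

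**Figure D5:**
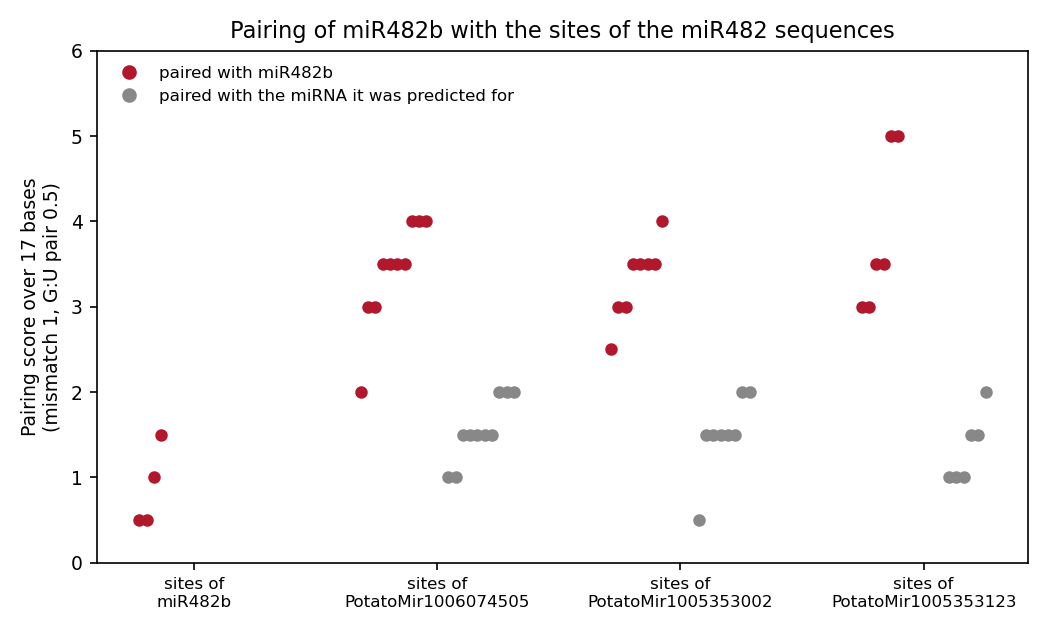
Pairing score over 17 bases (1 for a mismatch, 0.5 for a G:U pair) of each distinct site with miR482b (red) and with the miRNA for which it was predicted (grey), 1 point per site. miR482b scores 0.5 to 1.5 on its own 4 sites and 2 to 5 on the sites of its relatives.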

How the data were processed

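Small RNA libraries of 4 groups (3 biological replicates each) had been sequenced. The authors trimmed reads with Cutadapt (1.1 per the submitters' processing notes), removed other RNA classes with cross_match, aligned reads without mismatches to the DM superscaffolds with Bowtie, folded the surrounding windows with RNAfold and predicted miRNAs with miRDeep-P. The deposited list holds raw read counts of the pooled libraries, written into the identifier of each sequence, with no normalization. The list gives no depth per library, and columns of single libraries left out: 0.

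Precursors were folded with ViennaRNA 2.7.2 at 37 °C. Star sequences were cut with a 2 nt 3′ overhang, using the nearest paired base within 5 nt where needed, and were identical to those of the study's table at 248 of 252 loci. Star reading and pairing scores were tested on simulated data and recovered 200 of 200 perfectly paired hairpins and 200 of 200 sites. The simulated hairpins all had the mature strand on the 3′ arm, and none had a bulge or a mismatch. The reading of duplexes with bulges was therefore not tested by them. Site sequences and names came from the study's tables, without their values. Intervals (SciPy 1.17.1) cover 95%. No test was made, since length, reads and pairing had chosen the sequences. The members and lists were chosen with earlier results of these data known. Named sequences were the members, all other miR482 sequences, the 3 closest sequences of each member as far as they add to a result, and neighbours by reads. Named transcripts carry sites of both families or the lowest or highest score. The Tm-2 site was chosen after its values were seen. Alternatives changed the counting unit, the read minimum, the fold, the duplex ends and the scoring.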

Additional observations from a re-analysis of the deposited data

How the results depend on the processing

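A fold at 20 °C left the star lengths and the unpaired bases of both duplexes as they were, and a minimum of 5 reads left the shares of reads within their intervals. Summed over loci, which counts sequences with many loci more than once, the share of miR482b was 0.644% and that of miR6024 was 0.0244%. With 22 nt sequences as the total the shares were 34.9% and 1.32%. The minimum free energy per nt of miR482b was -0.602 kcal/mol at 20 °C and -0.407 with dangling ends off, and for miR6024 it was -0.516 and -0.359. With G:U pairs as mismatches, miR482b had 4 and miR6024 had 3 unpaired bases. The end difference of miR482b was 4 kcal/mol over 3 positions and 0 over 5, and that of miR6024 was -0.9 over 5. With a weight of 1 for G:U pairs the median pairing score was 2 for both members, and over the first 17 bases it was 0.75 for miR482b and stayed the same for miR6024. No paired analysis was possible because the list has no values of single libraries. For the same reason no replicate could be left out. Levels by tissue and day length were not analysed here, as the totals in the study's tables were not used.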

Other observations

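Each of the predicted sites was paired more strongly than the star strand of the same miRNA. By RNAduplex the star strand of miR482b had -22.90 kcal/mol, 55.4% of a perfect complement, and 4 of 4 sites were lower in energy. The star strand of miR6024 had -20.60 kcal/mol (61.1%), and 10 of 10 sites were lower. This was also the case for 6 of 6, 8 of 8 and 10 of 10 sites of PotatoMir1005353123, PotatoMir1005353002 and PotatoMir1006074505, whose star strands had 51.9%, 67.0% and 67.0% of a perfect complement. Star strands are fixed by the hairpin and sites were chosen by pairing, so these values were not tested.

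The precursor of miR482b was aligned with those of its relatives by parts. The mature strand of PotatoMir1006074505 was the most alike, at 81.8% of the aligned columns, but its loop was the least alike at 46.2%. The neighbour PotatoMir1005353002 was alike at 66.7% in the mature strand, 73.9% in the star strand and 64.1% in the loop. For PotatoMir1005353123 these were 58.3%, 68.0% and 53.8%, and the star strand of PotatoMir1006074505 was alike at 71.4%. The precursor of miR6024, which is of another family, was aligned with that of miR482b for comparison. It was alike at 42.3% in the mature strand, 43.5% in the star strand and 48.9% in the loop. The loop of PotatoMir1006074505 was thus no more alike than that of miR6024, and the loop of PotatoMir1005353123 was little more alike. Columns with gaps are counted here, so the 66.7% is 16 of 24 columns, whereas the alignment without gaps gave 16 of 20 bases.

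RefSeq (assembly SolTub_3.0) names 5 genes of miR482, MIR482A to MIR482E, while the list holds 4 miR482 sequences. For miR6024 it names 1 gene. None of the star strands of the 5 sequences was itself listed as a mature sequence.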
